A study of Homo sapiens with 6 samples.

Results

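The fetal globin repressors and their regulators were examined as 9 genes, BCL11A, ZBTB7A, MYB, HBS1L, NR2C1, NR2C2, LIN28B, IGF2BP1 and IGF2BP3, of 19821 protein-coding genes annotated on hg19. Peaks of SMARCA4 were taken from a window of each gene, its annotated span plus 10 kb on each side, and from the whole interval between HBS1L and MYB. These windows held 51 of the 28265 peaks of the list, 22 at the genes' own promoters, 0 at promoters of other coding genes and 29 distal. A promoter peak overlapped the 1 kb on either side of the transcription start site (TSS) of a coding transcript, and a distal peak overlapped no such stretch of any coding gene.

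The γ-globin genes are transcribed in fetal erythroid cells and are silenced after birth by repressors that bind their promoters, with BCL11A and ZBTB7A as the principal pair. MYB and the long-range enhancers between HBS1L and MYB keep progenitors dividing and favour the adult globin programme, and the orphan nuclear receptors NR2C1 and NR2C2 belong to a further repressor complex at the embryonic and fetal globin promoters. LIN28B, IGF2BP1 and IGF2BP3 are RNA-binding proteins of fetal cells, where LIN28B blocks maturation of let-7 microRNAs and LIN28B and IGF2BP1 lower the amount of BCL11A protein.

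K562 is an established human leukaemia line with erythroid features that expresses embryonic and fetal globins, and SMARCA4 is an ATPase of the SWI/SNF chromatin remodelling complex. For SMARCA4 ChIP-seq, proteins were fixed to DNA by disuccinimidyl glutarate (2 mM, 30 min) followed by formaldehyde (1%, 10 min), and 3 ChIP and 3 input libraries were made. The list holds regions found in at least 2 of the 3 ChIP replicates, which the series description calls technical and the paper biological. It pools the replicates and carries no read numbers, peak heights or values per replicate, so no spread between replicates can be given for any region from the list, and no difference described here was tested. Promoter peaks were listed at 6 of 6 erythroid and K562 markers (GATA1, TAL1, KLF1, HBG1, HBE1 and HBZ), and at 0 of 2 B cell markers (PAX5, MS4A1), 0 of 3 T cell markers (CD3E, CD3D, CD2), 0 of 3 liver markers (ALB, APOA2, APOB) and 1 of 3 neuronal markers (SNAP25, but not SYT1 or RBFOX3). The count takes in every annotated coding start, and 4 of the 6 erythroid markers, all but HBE1 and HBZ, had a peak within 1 kb of the canonical TSS.

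SMARCA4 was listed at the promoters of 8 of the 9 genes, all but BCL11A, whereas 9268 of all 19821 coding genes (46.8%) had a peak at their own promoter. A distal peak lay in the windows of 7 of the 9 genes, all but BCL11A and NR2C1, against 7188 coding genes (36.3%). BCL11A was the 1 member with no peak in its window, a state shared by 7366 coding genes (37.2%). The genes had a median of 5 peaks in their windows, of which a median of 2 were distal, compared with medians of 1 and 0 over all coding genes. These counts make no allowance for window length, which ran from 43.6 kb at ZBTB7A to 180.3 kb at IGF2BP3. Per 100 kb of window, the 8 genes with peaks had 2.72 (NR2C1) to 11.5 (ZBTB7A), against a median of 1.758 over all coding genes. Their densities were above those of 58.9% to 92.5% of coding genes, and their counts above those of 57.9% to 99.4%. The map of the windows shows an empty window at BCL11A, peaks gathered around the start site at LIN28B, IGF2BP1 and IGF2BP3, and peaks spread along and upstream of the gene at HBS1L.

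**Figure D1:**
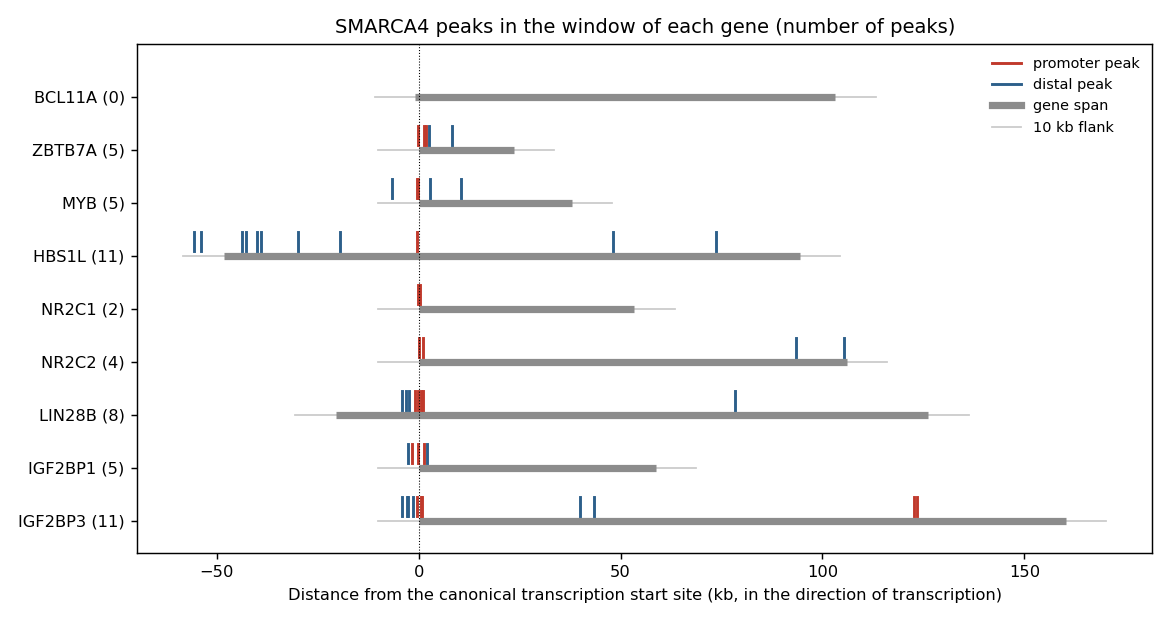
SMARCA4 peaks in the windows of the 9 genes, drawn by distance in kb from the canonical TSS in the direction of transcription; each tick is a peak at its midpoint (red, promoter; blue, distal), thick grey lines are annotated gene spans and thin lines the 10 kb flanks. BCL11A has 0 peaks, and HBS1L and IGF2BP3 have 11 each.

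BCL11A, the zinc finger repressor that binds the letters TGACCA in the γ-globin promoters, spans chr2:60677655-60781602 on the − strand. The peak nearest to its TSS was 327.4 kb away, and 92% of coding genes had a nearer peak. The gene lay in a stretch of 2149 kb without a peak, chr2:58959073-61108142, which also holds the TSS of PAPOLG, a poly(A) polymerase gene that was named after its position was seen. Of 28241 distances between neighbouring peaks, 206 (0.729%) were at least as long, and the median was 16306 bp. Stretches of at least that length held the TSSs of 1034 coding genes (5.22%). The stretch is a property of the list, and whether reads or input signal reached it was not examined here. Its copy number in K562 and how well reads can be placed in it were not examined either. An empty window was more common than so long a stretch. Among the 3427 windows at least as long as the 123.9 kb of BCL11A, 1250 held no peak (36.5%, 95% Wilson interval 34.9 to 38.1).

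The promoter of BCL11A had the base composition at which SMARCA4 peaks were frequent. Its sequence within 500 bp of the canonical TSS was 58% G and C with an observed to expected CpG ratio of 0.873, and 7563 of the 11867 coding genes with a CpG-rich promoter (at least 55% G and C and a ratio of at least 0.6) had a promoter peak (63.7%, 62.9 to 64.6), against 1705 of 7954 other genes (21.4%, 20.5 to 22.4). A CpG-rich promoter was found at 6 of the 9 genes, BCL11A among them. The window of BCL11A held 0 unknown bases in the reference. Within 1 kb of the TSS the promoter also held 7 G-quadruplex (G4) motifs, defined as 4 runs of at least 3 G separated by 1 to 7 bases, on either strand, and 94.7% of coding genes had fewer. A pair of them is printed because they lie 136 and 187 bp upstream of the TSS and in no peak, with the G runs in capitals. A match to these letters is a description of the sequence and not evidence that a G4 forms.
BCL11A upstream motif at 136 bp, chr2:60780912-60780938, + strand: GGGGaGGGGGaggtgcGGGGcGGGGGG
BCL11A upstream motif at 187 bp, chr2:60780965-60780986, + strand: GGGGGaGGGGcGGGccgaGGGG

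ZBTB7A, the other principal repressor of the γ-globin genes, lay at chr19:4043301-4066897 on the − strand and had 5 peaks, 3 at the promoter and 2 in intron 1, which became 2 when peaks at most 500 bp apart were merged. Peaks covered 79.3% of the sequence within 1 kb of its TSS, more than in 98.8% of coding genes. The peak across the TSS, chr19:4066417-4067855, was 1439 bp wide and 75.3% G and C, and it held 10 G4 motifs. Another promoter peak of 820 bp in intron 1 was 85% G and C, the highest content among the 51 peaks. The promoter of ZBTB7A contained 14 G4 motifs within 1 kb of the TSS, more than in 99.8% of coding genes, and 10 of the 14 were inside a peak. The repressor pair therefore had G4-rich promoters at both genes and SMARCA4 peaks at ZBTB7A alone. The motif nearest to the TSS of ZBTB7A, 62 bp upstream and inside the widest peak, is shown for comparison with those of BCL11A.
ZBTB7A upstream motif at 62 bp, chr19:4066946-4066972, − strand: GGGGGGGGcGGGctGGGcgtGGGGGGG

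Distal peaks were read for the letters of erythroid factors. A GATA motif is the sequence bound by the erythroid factor GATA1 (AGATAA or AGATAG or TGATAA or TGATAG on either strand), and an AP-1 motif is TGACTCA or TGAGTCA. The capitals in the distal sequences that follow mark GATA motifs, AP-1 motifs and the CTG and GATA of a TAL1-GATA composite, which is CTG, 7 to 9 bases of any kind and GATA on either strand. A composite can share letters with a GATA motif.

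MYB, the transcription factor that sustains proliferation of erythroid progenitors, lay at chr6:135502446-135540311 on the + strand and had 5 peaks. Its promoter carried 334 bp and 342 bp peaks, chr6:135501761-135502094 and chr6:135502116-135502457, that were separated by 21 bp, the nearer of which overlapped the TSS. Together the pair covered 33.8% of the sequence within 1 kb of the TSS. Of 4 G4 motifs within 1 kb of the TSS, 1 was wholly inside a peak, and the motif 331 bp upstream ran across the edge between the gap and the nearer peak. Distal peaks lay 6.6 kb upstream, 2.7 kb downstream in intron 1 and 10.6 kb downstream in intron 5. The intron 5 peak, chr6:135512513-135513596, was the widest of the 3 at 1084 bp and held 5 GATA motifs and 1 composite, while the intron 1 peak of 348 bp held 0 GATA motifs. The promoter motifs and a stretch of the intron 5 peak with 2 of its GATA motifs are given below, the G runs or the GATA letters in capitals.
MYB upstream motif at 331 bp, chr6:135502102-135502128, + strand: GGGaggaGGGGaggcggcGGGactGGG
MYB upstream motif at 230 bp, chr6:135502205-135502227, − strand: GGGcaGGGagcccGGGGccaGGG
MYB intron 5, chr6:135512941-135513090, + strand: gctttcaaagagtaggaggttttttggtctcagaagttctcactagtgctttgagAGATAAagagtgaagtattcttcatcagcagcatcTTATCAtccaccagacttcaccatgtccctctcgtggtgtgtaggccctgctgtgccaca

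HBS1L, which encodes a GTPase that rescues stalled ribosomes, lies next to MYB on chromosome 6 with its transcription running the other way, at chr6:135281516-135424194. Its window held 11 peaks, 1 at the promoter and 10 distal, and 99.8% of coding genes had fewer distal peaks. Per 100 kb of window it had 6.15 distal peaks, a density above that of 95.2% of coding genes, while the density of all its peaks was above that of 82.3%. The coding genes with the most distal peaks were GSE1 with 32, ZFPM2 with 21, DLGAP1 and NFIA with 20 each and SMYD3 with 19, in windows of 526.7 to 1234 kb that held 1.7 to 6.08 distal peaks per 100 kb. The promoter peak was 1247 bp wide and covered 62.3% of the sequence within 1 kb of the canonical TSS. An unnamed long non-coding gene on the other strand also starts within 1 kb of this peak. The peak held 5 GATA motifs and 1 G4 motif, whereas the MYB promoter peaks held 0 GATA motifs. Downstream of the canonical TSS, distal peaks lay at 48.2 kb in intron 4 and at 73.7 kb in intron 13. The intron 13 peak, chr6:135301960-135302510, held 5 GATA motifs and 1 composite in 551 bp, and the intron 4 peak held 0.

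The interval between HBS1L and MYB holds enhancers that contact the MYB promoter in erythroid cells. Between the annotated spans, chr6:135424195-135502445, the 78.3 kb held 5 peaks, 2 at the MYB promoter and 3 distal, or 3.83 distal peaks per 100 kb. Some HBS1L transcripts begin far upstream of the canonical TSS, so part of the upstream region falls inside the annotated span of the gene. Between the canonical TSSs, chr6:135375961-135502445, the 126.5 kb held 12 peaks, 3 at promoters and 9 distal. That is 7.12 distal peaks per 100 kb. Over the genome without unknown bases the rate was 0.576 per 100 kb. Apart from the peak 6.6 kb upstream of the MYB TSS, the 9 distal peaks were also among the 10 of the HBS1L window. The densities of 6.15 and 7.12 therefore describe largely the same peaks.

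The 9 distal peaks were not spread evenly. By distance upstream of the MYB TSS they lay at 107.1, 96.6, 87.5, 86.6, 83.9, 82.8, 72.5, 70.9 and 6.6 kb. The 63.9 kb from the peak at 70.9 kb to the peak at 6.6 kb held no peak. The widest of the 9 were the peak at 83.9 kb, chr6:135418234-135418944, with 711 bp, and the peak at 70.9 kb, chr6:135431148-135431854, with 707 bp. The peak at 6.6 kb was 88 bp wide, narrower than the 150 bp at the lower end of the sheared fragments.

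**Figure D2:**
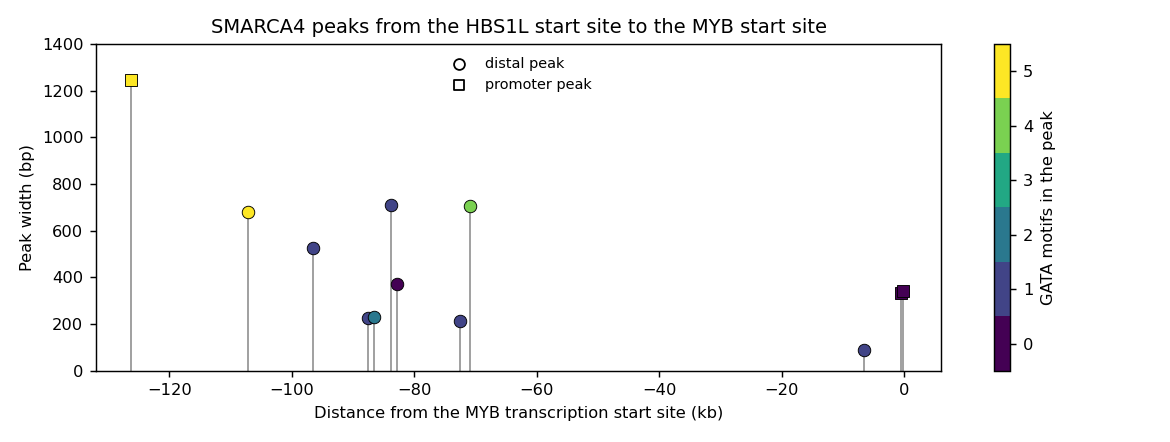
Width in bp of each SMARCA4 peak from the HBS1L canonical TSS to the MYB TSS, by distance from the MYB TSS in kb; circles are distal peaks, squares promoter peaks, and colour gives the number of GATA motifs. The 9 distal peaks hold 16 GATA motifs, 5 of them in the peak at 107.1 kb and 4 in the peak at 70.9 kb.

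GATA motifs were present in 8 of the 9 distal peaks of the interval, the peak at 82.8 kb being the exception, and in 68.3% of all distal peaks. The 9 peaks held 16 motifs in 3747 bp, or 4.27 per kb, against 3.53 per kb in all 16474 distal peaks of the list. Their median content of G and C was 34.9%, lower than the 46.8% of all distal peaks. A composite was found in 1 of the 9, at 70.9 kb, against 29% of all distal peaks. An AP-1 motif was also found in 1, at 86.6 kb, against 24.3%. Windows of 150 bases are given for 4 interval peaks that differ in width and motifs and for the HBS1L intron 13 peak, which has 3 of its GATA motifs close together.
Interval peak at 107.1 kb, chr6:135395107-135395256, + strand: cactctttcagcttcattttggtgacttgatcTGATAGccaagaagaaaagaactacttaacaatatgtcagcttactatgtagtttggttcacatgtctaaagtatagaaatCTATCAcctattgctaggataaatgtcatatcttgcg
Interval peak at 86.6 kb, chr6:135415832-135415981, + strand: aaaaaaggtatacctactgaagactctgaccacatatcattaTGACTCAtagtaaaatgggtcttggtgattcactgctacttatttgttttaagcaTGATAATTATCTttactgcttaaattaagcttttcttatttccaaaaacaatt
Interval peak at 83.9 kb, chr6:135418584-135418733, + strand: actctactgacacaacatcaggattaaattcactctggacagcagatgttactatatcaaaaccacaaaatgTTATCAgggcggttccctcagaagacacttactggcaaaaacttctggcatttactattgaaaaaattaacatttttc
Interval peak at 70.9 kb, chr6:135431527-135431676, + strand: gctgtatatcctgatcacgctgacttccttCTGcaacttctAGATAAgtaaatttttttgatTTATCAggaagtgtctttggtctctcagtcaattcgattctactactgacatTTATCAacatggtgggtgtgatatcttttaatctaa
HBS1L intron 13, chr6:135302070-135302219, + strand: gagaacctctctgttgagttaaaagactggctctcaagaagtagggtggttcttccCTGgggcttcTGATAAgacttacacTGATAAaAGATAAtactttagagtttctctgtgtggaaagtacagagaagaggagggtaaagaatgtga

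NR2C1 and NR2C2 encode TR2 and TR4, nuclear receptors that pair on direct repeats in the embryonic and fetal globin promoters. NR2C1, at chr12:95414005-95467404 on the − strand, had the fewest peaks among the genes with any. Its promoter peaks were 332 bp and 199 bp wide on either side of the TSS, with a gap of 225 bp between them, and its window held 0 distal peaks. NR2C2, at chr3:14989090-15095107 on the + strand, had a promoter peak of 1166 bp across the TSS and another of 197 bp in intron 1. The TSS of the long non-coding gene FGD5-AS1 lay within 1 kb of both, so those peaks cannot be assigned to 1 of the genes by position. Of the G4 motifs within 1 kb of the TSS, 2 of 2 in the NR2C1 promoter and 5 of 5 in the NR2C2 promoter were inside peaks.

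Distal peaks of NR2C2 lay far from its TSS, at 93.5 kb in intron 13 and at 105.4 kb. Both were also inside the span of MRPS25, a mitochondrial ribosomal protein gene that overlaps the end of NR2C2. The peak of 653 bp at 105.4 kb, chr3:15094144-15094796, held 3 GATA motifs and 1 composite, and the peak of 214 bp in intron 13 held 2 GATA motifs and 1 AP-1 motif. The wider peak is represented by the stretch with its composite, in which the GATA letters read CTATCT on the printed strand.
NR2C2 at 105.4 kb, chr3:15094332-15094481, + strand: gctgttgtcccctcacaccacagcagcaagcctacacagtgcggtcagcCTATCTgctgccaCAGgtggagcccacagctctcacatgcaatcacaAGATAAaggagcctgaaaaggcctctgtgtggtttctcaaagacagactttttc

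The RNA-binding proteins of the fetal programme and ZBTB7A had the most peak-covered sequence within 5 kb of their start sites. Within 5 kb of the canonical TSS, peaks covered 3561 bp at IGF2BP3, 3132 bp at IGF2BP1, 2851 bp at LIN28B and 2810 bp at ZBTB7A. The 99th percentile over all coding genes was 2724 bp, and 51% of coding genes had 0 bp. The other promoters were lower, with 1363 bp at NR2C2, 1247 bp at HBS1L, 1024 bp at MYB and 531 bp at NR2C1. Within 1 kb of the TSS the order differed, with 1860 bp at IGF2BP3, 1586 bp at ZBTB7A, 1461 bp at LIN28B, 1247 bp at HBS1L, 1166 bp at NR2C2 and 1154 bp at IGF2BP1. The drawing of the start sites to scale shows that much of this cover was in pieces with small gaps. The number of peaks is therefore less informative here than the length covered.

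**Figure D3:**
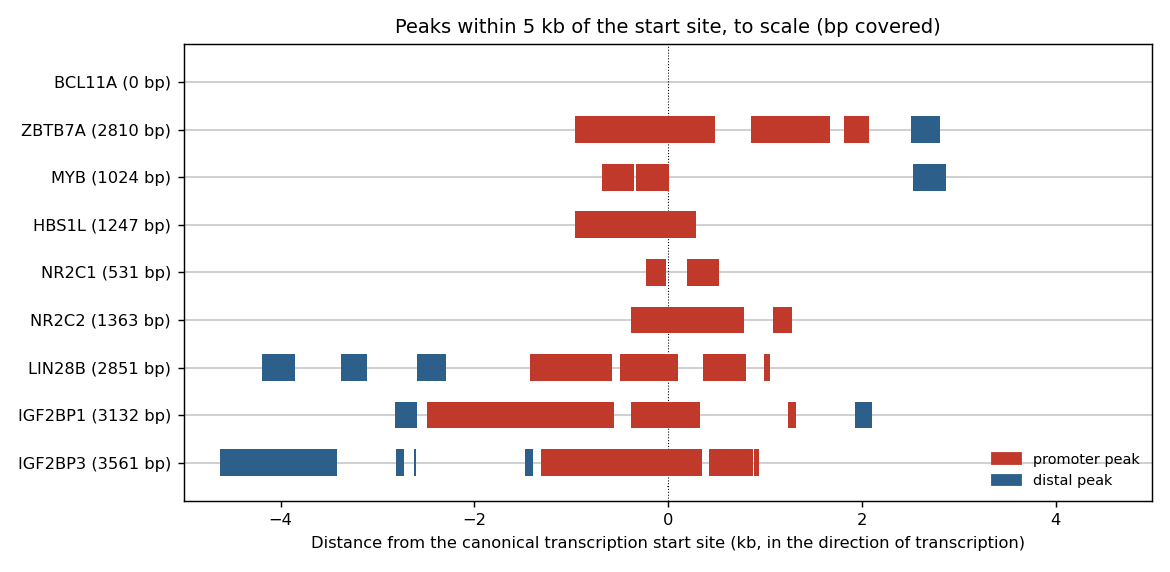
SMARCA4 peaks within 5 kb of the canonical TSS of each gene, to scale, by distance in kb in the direction of transcription (red, promoter; blue, distal), with the bp covered in brackets. IGF2BP3 has the most, 3561 bp, in pieces that extend upstream, and BCL11A has 0 bp.

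LIN28B, the inhibitor of let-7 maturation, lay at chr6:105384491-105531207 on the + strand and had 8 peaks, 4 at the promoter and 4 distal. Of the 8 peaks 7 lay within 5 kb of the TSS, and 99.9% of coding genes had fewer. When peaks at most 500 bp apart were merged there were 3, more than in 97.4% of coding genes. The LIN28B promoter was the poorest of the members in G and C (41% within 500 bp of the TSS, CpG ratio 0.527), a composition outside the CpG-rich class. Its 3 G4 motifs within 1 kb of the TSS were in 0 of its peaks. The motif 216 bp downstream fell in the gap of 256 bp between the peak across the TSS and the next one.
LIN28B downstream motif at 216 bp, chr6:105405188-105405208, − strand: GGGtGGGagaGGGGGaGGGGG

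The distal peaks of LIN28B were of 2 kinds. Those at 4.0, 3.2 and 2.4 kb upstream of the TSS were 339, 273 and 297 bp wide and held 0 GATA, AP-1 or composite motifs. The peak 78.4 kb downstream in intron 3, chr6:105483185-105483493, was 309 bp wide and held a GATA motif and a composite that did not share letters, as the stretch given here shows.
LIN28B intron 3, chr6:105483185-105483334, + strand: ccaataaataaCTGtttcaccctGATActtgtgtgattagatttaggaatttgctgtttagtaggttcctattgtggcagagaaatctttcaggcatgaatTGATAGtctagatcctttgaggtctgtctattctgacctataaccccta

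IGF2BP1, an mRNA-binding protein of fetal tissues and a let-7 target, lay at chr17:47074747-47133507 on the + strand and had 5 peaks, all within 5 kb of its TSS. The widest peak of the 51 was upstream of it, chr17:47072259-47074193, with 1935 bp, 4 GATA motifs and 5 G4 motifs. The peak across the TSS was 707 bp wide. An unnamed long non-coding gene on the other strand starts within 1 kb of both peaks. They cannot be assigned to 1 of the genes by position. Distal peaks of 223 bp at 2.7 kb upstream and 177 bp at 2.0 kb downstream in intron 2 flanked the promoter peaks, and both held 0 GATA motifs.

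IGF2BP3, a paralogue of IGF2BP1 that is also expressed in fetal tissues, lay at chr7:23349828-23510110 on the − strand and had 11 peaks, 5 at promoters and 6 distal. Peaks covered 93% of the sequence within 1 kb of its canonical TSS, more than in 99.7% of coding genes. The peak across the TSS was 1661 bp wide, and 4 of 4 G4 motifs within 1 kb of the TSS were inside peaks. Upstream, a distal peak of 1209 bp at 4.0 kb, chr7:23513532-23514740, was the widest distal peak of the 9 genes. An unnamed long non-coding gene starts within 1 kb of this peak, and pieces of 80, 18 and 85 bp lay between the peak and the promoter. A pair of promoter peaks, 178 and 241 bp wide, lay 123.3 and 122.7 kb inside the gene at the TSS of another coding transcript. In intron 2, distal peaks lay 43.5 and 40.0 kb downstream of the canonical TSS, and the former, chr7:23466441-23466849, held 3 GATA motifs and 1 AP-1 motif. In the stretch printed, a GATA motif and the AP-1 motif are near neighbours.
IGF2BP3 intron 2, chr7:23466624-23466773, + strand: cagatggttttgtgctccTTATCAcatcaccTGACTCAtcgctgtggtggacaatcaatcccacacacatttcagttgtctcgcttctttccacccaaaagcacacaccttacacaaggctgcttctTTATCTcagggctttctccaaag

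The distal peaks of the 9 genes were also counted by distance from the start site, a division made after the values were seen and not tested. Of the 11 distal peaks within 5 kb of a canonical TSS, 1 held a GATA motif (9.09%), with 0.299 motifs per kb, and 4 of the 11 were narrower than 200 bp. Among all 2508 distal peaks of the list within 5 kb of a canonical coding TSS, 1363 held one (54.3%), with 2.75 motifs per kb. Of the 9 distal peaks in the HBS1L-MYB interval, 8 did (88.9%), and of the remaining 9 distal peaks, 7 did (77.8%), with 4.27 and 4.8 motifs per kb. In the 13966 distal peaks of the list farther from a TSS the share was 70.8% and the density 3.66 per kb. At least 4 GATA motifs were held by 4 of the 29 distal peaks (13.8%), against 9.42% of all distal peaks, and these were the peaks at 107.1 and 70.9 kb in the interval and those in MYB intron 5 and HBS1L intron 13.

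Over the 29 distal peaks together, a GATA motif was in 16 (55.2%, 37.5 to 71.6), an interval that holds the share of all distal peaks, 11254 of 16474 (68.3%, 67.6 to 69). The composite was in 5 of 29 (17.2%, 7.6 to 34.5) against 29% of all distal peaks. An AP-1 motif was in 4 of 29 (13.8%, 5.5 to 30.6) against 24.3%, but in 200 bp centred on each peak the order was the other way, with 20.7% against 18.4%. Those 200 bp run past the ends of peaks narrower than that, 6 of the 29, so they include sequence outside the peaks. The E-box letters CAGATG or CAGCTG were in 37.9% against 44.8%, the RUNX letters TGTGGT in 31% against 24.9% and the MYB letters CAACTG or CAACGG or TAACTG or TAACGG in 31% against 36.3%. In the centred 200 bp the order for the MYB letters also turned, with 27.6% against 22.6%. The BCL11A letters TGACCA were in 17.2% against 19.4%. The nuclear receptor half-site AGGTCA was in 3 of 29 (10.3%, 3.58 to 26.4) against 26.8%, a share above that interval, but in the centred 200 bp it was in 6.9% (1.91 to 22) against 15.2%, within it. The CTCF motif was in 0 of 29 distal peaks (upper limit 11.7%) and in 3.93% of all distal peaks. The distal peaks of the genes had a median width of 297 bp (18 to 1209), against 341 bp for all distal peaks, so they offered slightly less sequence for a match.

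**Figure D4:**
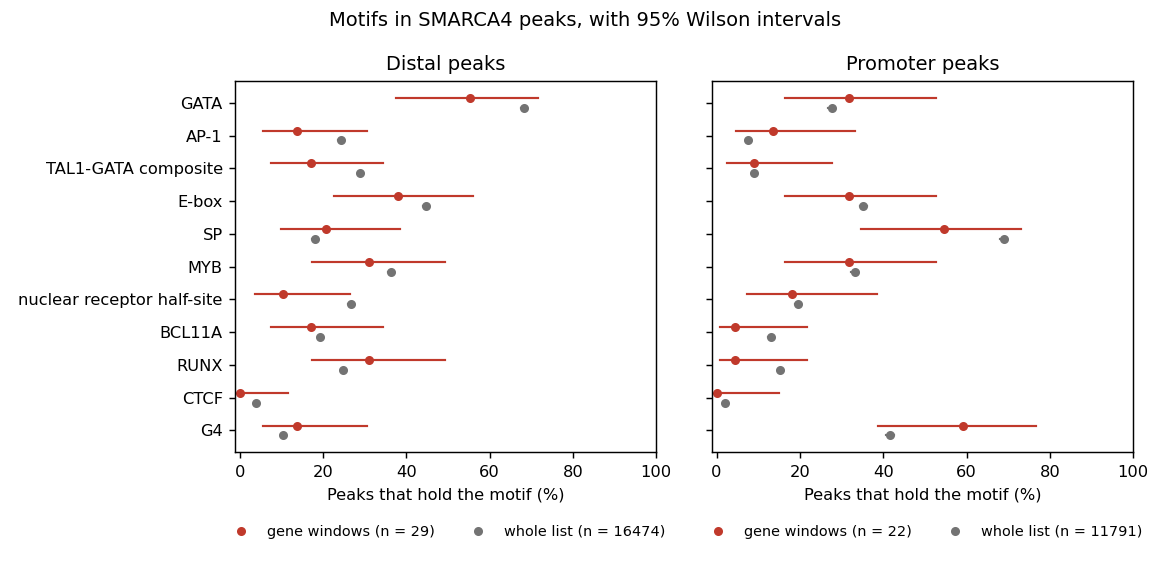
Percentage of peaks that hold each motif in distal peaks (left) and promoter peaks (right); red points are peaks of the 9 gene windows, grey points all peaks of that class in the list, and lines are 95% Wilson intervals. GATA is at 55.2% against 68.3% in distal peaks, and G4 at 59.1% against 41.6% in promoter peaks.

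At promoters a G4 motif was in 13 of the 22 peaks (59.1%, 38.7 to 76.7), beside 41.6% (40.7 to 42.5) of the 11791 promoter peaks of the list. The SP letters GGGCGG were in 12 of the 22 (54.5%, 34.7 to 73.1) against 68.9% and GATA motifs in 31.8% against 27.6%. Counted by motif, 24 of the 41 G4 motifs within 1 kb of the 9 canonical TSSs were inside a peak, 10 of the 24 at ZBTB7A. At all coding genes it was 8678 of 40257 (21.6%, 21.2 to 22). That share takes in genes without a promoter peak, where no such motif can be inside a peak. A promoter peak was listed at 8 of the 9 genes and at 46.8% of coding genes. The share among coding genes with a promoter peak was not computed, so these values show no preference for G4 motifs. By gene, 0 of 7 were inside a peak at BCL11A, 0 of 3 at LIN28B and 1 of 4 at MYB, while 23 of 27 were at the other 6 genes. The genes were divided by these values themselves, and the division was not tested. In the centred 200 bp, G4 motifs and SP letters were each in 10 of the 22 promoter peaks (45.5%, 26.9 to 65.3), against 24.4% and 54.9% of all promoter peaks. The median content of G and C was 59.2% in the promoter peaks of the genes and 65.1% in all promoter peaks.

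Other genes with a part in globin switching were read the same way from a list of 32, all of which were matched to the annotation. Promoter peaks were listed at 30 of the 32, beside 46.8% of coding genes and 63.7% of those with a CpG-rich promoter. All but KLF1, GATA1, LMO2, SOX6 and LIN28A had an observed to expected CpG ratio of at least 0.6. A distal peak was found at 21, beside 36.3%, with a median of 1 against 0 over all coding genes. The list was chosen with earlier results of these data known. The list includes GATA1, KLF1 and TAL1, which drive erythroid transcription, and subunits of the NuRD complex, CHD4, MTA2, MBD2 and GATAD2A, with which BCL11A and ZBTB7A act. The exceptions were SOX6, a partner of BCL11A in silencing γ-globin, and LIN28A, the paralogue of LIN28B. SOX6 had 10 distal peaks, and the nearest peak to its TSS was 2722 bp away. LIN28A had 1 distal peak, and the nearest peak was 1887 bp from its TSS. The count of 30 takes in every annotated coding start, and with 1 canonical transcript per gene it was 29. GATA2 had 0 bp of peak within 1 kb of its canonical TSS, with the nearest peak 2372 bp away. At LMO2 peaks covered 60 bp of that stretch, and the nearest peak was 940 bp away. Distal peaks were most numerous at NFIA, with 20, and at SOX6 and FOXO3, with 10 each. Windows differ in length, and those of NFIA and SOX6 were 617.5 and 793.1 kb, against 162.7 kb for the 10 distal peaks of HBS1L. FOXO3 had its 10 in a shorter window of 144.9 kb, and NFIX, named after its values were seen, had 9 in 123.3 kb, so HBS1L was not alone in its density of distal peaks.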

How the data were processed

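SMARCA4 ChIP-seq of K562 cells was analysed from 1 deposited peak list. The deposited file gives positions alone (a chromosome and the bounds of a region, in bp), without scores. Per the sources, the authors used cutadapt 1.16 for trimming and BWA 0.7.15 for alignment to hg19, removed duplicates (Picard 2.14.0, SAMtools 1.6), called peaks with MACS2 2.1.1 (q-value threshold 0.05) and kept regions present in 2 of 3 replicates with bedtools 2.26.0. Library depth is not part of the list and was not analysed here.

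Peaks were compared with the hg19 sequence and GENCODE 44 lifted to that build, using Python 3.11.15, numpy 2.4.6, scipy 1.17.1, pysam 0.24.0 and matplotlib 3.10.9. An overlap of at least 1 bp counted, positions are counted from 1, and the distance of a described peak to a TSS runs from its midpoint. The distance from a TSS to the nearest peak runs to the edge of that peak. The canonical TSS is that of the Ensembl canonical transcript. Motifs were counted on both strands, anywhere in a peak; KLF, ETS and STAT motifs were also counted and are not reported here. Percentages carry 95% Wilson intervals, which cover counting error only, and peaks are not independent replicates. Motif and overlap counting were tested on simulated data.

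Named were all 9 genes, listed globin regulators without a promoter peak and the 3 with most distal peaks, other coding genes with a TSS within 1 kb of a peak in a window (there were 0), the 5 coding genes with most distal peaks, and the cell type markers, some of which are not reported here. Sequences are shown for some of the distal peaks. CHD4, MTA2, MBD2 and GATAD2A are named as examples of the list. MRPS25, FGD5-AS1 and PAPOLG were named after their positions were seen. The members and lists were chosen with earlier results of these data known. Alternatives were other flanks, promoter widths, peak widths, merging, interval ends and motif windows. Others were different sets of transcript starts, peak midpoints in place of overlaps, and longer G4 loops.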

Additional observations from a re-analysis of the deposited data

How the results depend on the processing

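Of 89 alternatives to the main counts and shares, 85 gave a count within 1.5 times the one reported or a share inside its interval, and 4 did not. Merging peaks at most 500 bp apart left 33 peaks in the windows, since many peaks are pieces separated by small gaps. The HBS1L-MYB interval held 12 peaks when taken between the canonical TSSs. The share of promoter peaks with a G4 motif was 90% (9 of 10) after merging, beside 50.8% of all promoter peaks, and 77.3% (17 of 22) with 100 bp added on each side, beside 52.4%. Both settings lengthen the sequence searched. With G4 loops of 1 to 12 bases the difference was smaller, 63.6% (14 of 22) beside 57.2% of all promoter peaks. The number of genes with a promoter peak was 8 in every alternative run. For the peaks of single genes, 36 alternatives chosen after the data were seen gave 22 counts within 1.5 times and 14 outside. BCL11A had 0 peaks in all 4 of its own, which included a flank of 50 kb, whereas merging took ZBTB7A from 5 to 2, LIN28B from 8 to 4, NR2C1 from 2 to 1, IGF2BP1 from 5 to 3 and IGF2BP3 from 11 to 6, and the 50 kb flank took ZBTB7A to 8 and NR2C2 from 4 to 7. Without the flank MYB and IGF2BP1 had 3 each, NR2C1 1 and IGF2BP3 7, and without peaks under 200 bp NR2C1 had 1, IGF2BP1 3 and IGF2BP3 6. No paired analysis was possible because the list pools the replicates and gives no value per replicate, and leaving out a replicate could not be done for the same reason. The absence of a region from the list says that it was not called in 2 of 3 replicates at the authors' threshold, not that SMARCA4 was absent. Peaks carry no height, so occupancy cannot be compared between genes. Assignment of a distal peak to a gene is by position alone.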
